A study of Mus musculus with 18 samples.

Results

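The 85 genes described here encode the nuclear subunits of the mitochondrial respiratory chain and the ATP synthase, as far as their names place them there. They are the protein-coding genes of both deposited tables whose symbol starts with Nduf followed by a, b, c, s or v and a digit (complex I, 37 genes), is Sdha, Sdhb, Sdhc or Sdhd (complex II, 4 genes), starts with Uqcr or is Cyc1 (complex III, 9 genes), starts with Cox and a digit of the subunit series (complex IV, 18 genes) or starts with Atp5 (complex V, 17 genes). The tables hold 34385 and 34396 genes, of which 21826 are protein-coding in each. The selection goes by symbol alone. It therefore counts Ndufa4, a subunit found in complex IV, and its paralog Ndufa4l2 with complex I, it takes in Atp5s and Atp5sl, which are named after the ATP synthase but are not among its subunits, and it leaves out Ndufab1, the mitochondrial acyl carrier protein. A further 5 processed pseudogenes with matching symbols were not used.

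The respiratory chain passes electrons from NADH (complex I) and succinate (complex II) through complex III and cytochrome c to oxygen at complex IV, and the proton gradient built on the way drives ATP synthesis at complex V. Complexes I, III, IV and V are mosaics of a few subunits encoded by mitochondrial DNA and many encoded in the nucleus, whereas complex II is wholly nuclear. Photoreceptors are among the cells with the highest oxygen use in the body, and their inner segments are packed with mitochondria. NAD, the carrier that complex I re-oxidizes, is made in its last step by the NMNAT enzymes. Nmnat1 encodes the nuclear one and Nmnat2 the one at the Golgi and in the cytoplasm.

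The samples came from retinas of ICR mice, an outbred stock. At postnatal day 0.5 the retinas received a knockdown, overexpression or control plasmid together with an EGFP plasmid by electroporation, and they were then kept as explants for 3 days. EGFP-positive cells, which can be of several retinal cell types, were sorted by FACS, and their total RNA, 1 ng per sample, was amplified by SMART-Seq v4 before Nextera DNA Flex libraries were built. In the knockdown table, 3 Nmnat1 knockdown and 3 Nmnat2 knockdown libraries were set against 3 Scramble libraries, which carried a control plasmid. The overexpression table holds 3 Nmnat1 overexpression and 3 Nmnat2 overexpression libraries, set against 3 empty vector libraries. All 18 samples carried EGFP. The promoters of the plasmids, the number of shRNAs per gene and the number of retinas per sample are not given by the labels. Nothing in the labels says that replicates came from separate animals, so that p-values measure the spread between samples, which may be technical. In the titles, 1 sample of the Nmnat2 knockdown group and 1 of the Nmnat2 overexpression group name Nmnat3, while their descriptions and characteristics name Nmnat2, which was followed.

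Levels are given in ppm, the deposited length-scaled signal of a gene as parts per 1000000 of its column, so that levels of different genes are per length. For 3 of 4 targets the level lay in the direction the label gives. Nmnat1 was at 7.37, 8.54 and 7.49 ppm in Nmnat1 knockdown libraries, against 19.1, 20.9 and 17 ppm in Scramble libraries (exact two-sided permutation test, p = 0.1, the smallest that 3 against 3 allows). Nmnat1 was at 27832, 15347 and 14797 ppm in Nmnat1 overexpression libraries and Nmnat2 at 20911, 22818 and 21014 ppm in Nmnat2 overexpression libraries, against 22.6, 18.7 and 21.3 ppm of Nmnat1 and 2.71, 1.14 and 1.8 ppm of Nmnat2 in empty vector libraries. This target signal is part of the column sum to which all levels are scaled. Nmnat2 was too low for a check of its knockdown, with 1.27, 1.01 and 0.503 ppm in Nmnat2 knockdown libraries, against 6.22, 0.624 and 2.03 ppm in Scramble libraries (exact two-sided permutation test, p = 0.3).

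Some libraries stood apart from the others. The Nmnat2 knockdown library N2_2 had the lowest relative depth of the knockdown table (0.698, others up to 1.30) and the highest share of signal from mitochondrial DNA (6.51%, against 4.67% in the Scramble library C1 and 2.85% or less in the other 7 libraries). Its respiratory chain mRNAs stood apart as well, as described below, and results for the knockdown table are given with and without it. Of the overexpression libraries, N1_1 and N2_1, those numbered 1, had summed progenitor markers of 449 and 334 ppm, against 725 to 766 ppm in the other 4 overexpression libraries. Results for that table are given with and without the 3 libraries numbered 1. The sorted cells carried rod and Müller glia markers. The sum of 9 rod genes lay between 1652 and 5518 ppm in every library. That of 7 Müller glia genes lay between 2005 and 6372.5 ppm, above the rod sum in some libraries. Endothelial markers summed to between 15.5 and 140.6 ppm. The summed microglia, astrocyte and horizontal cell markers were at most 54.4 ppm each.

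The genes of the chain were among the most abundant mRNAs of these cells. In Scramble libraries, 14 of the 85 were among the 100 highest protein-coding genes, 58 among the highest 500 and 68 among the highest 1000. In empty vector libraries the numbers were 12, 58 and 66. Together they made up 4.50%, 4.21% and 4.21% of all signal in Nmnat1 knockdown libraries, 3.51%, 6.39% and 3.55% in Nmnat2 knockdown libraries (6.39% being N2_2) and 4.65%, 4.47% and 4.32% in Scramble libraries. They made up 3.76%, 3.90% and 3.95% in Nmnat1 overexpression libraries, 3.43%, 3.57% and 3.81% in Nmnat2 overexpression libraries and 4.02%, 4.09% and 4.20% in empty vector libraries. Both overexpression groups lay wholly below the empty vector libraries in this summed share, whereas Nmnat1 knockdown and Scramble libraries overlapped.

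Complex V held the top gene in both controls. Atp5b, the catalytic beta subunit, averaged 2193 ± 240.2 ppm in Scramble libraries and 2344 ± 38.2 ppm in empty vector libraries (SD, n = 3 each). Next came Cox4i1, the general isoform of the largest nuclear subunit of cytochrome c oxidase, with 2075 ± 63.1 ppm in Scramble libraries and 1679 ± 129 ppm in empty vector libraries. In complex I the highest were Ndufb8, an accessory subunit of the membrane arm, and Ndufa4, in complex III Uqcr11 and Uqcrq, both small subunits, and in complex II Sdhb, the iron-sulfur subunit, and Sdha, the flavoprotein. Complex II mRNAs were the lowest as a group: its 4 genes lay between 114 and 331 ppm in Scramble libraries, against a median of 607 ppm for complex III, 537 ppm for complex V, 430 ppm for complex IV and 377 ppm for complex I.

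In the Cox4i, Cox6a, Cox6b, Cox7b and Cox8 families, 1 isoform carried 97.4% or more of the signal in every library of both tables, whereas the Cox7a family and the c-ring genes were mixed. Cox4i1 held 99.35% to 99.8% of the Cox4i pair among knockdown-table libraries and 99.05% to 99.66% among overexpression-table libraries, beside Cox4i2, the isoform known from lung. Cox6a1 and Cox8a held 99.6% or more of their families, and their heart and skeletal muscle isoforms Cox6a2 and Cox8b were listed at 0 in 7 and 5 of 9 knockdown-table libraries and in 5 and 6 of 9 overexpression-table libraries. These 2 genes did not pass the filter of 1 ppm in 3 libraries, so that 83 of the 85 genes were tested in each table. Cox6b1 held 99.34% to 99.95% beside the testis isoform Cox6b2, and Cox7b 97.4% to 99.26% beside Cox7b2, in the knockdown table. Cox7a2, the liver-type isoform, held 75.9% to 87.8% of the Cox7a family in the knockdown table, with Cox7a2l, which joins complexes III and IV in supercomplexes, at 12.2% to 23.8% and the muscle isoform Cox7a1 at 0.566% or less. The c-ring of complex V, whose mature protein is the same from 3 genes, drew on Atp5g3 for 61.1% to 68.9%, on Atp5g1 for 24.9% to 34.5% and on Atp5g2 for 4.01% to 10.3% of the summed mRNA in the knockdown table.

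In Nmnat1 knockdown libraries a single subunit mRNA was lower past the threshold of an adjusted p under 0.05. Cox5a (GRCm38, chr9:57521274-57532426, plus strand) encodes a matrix-facing nuclear subunit of cytochrome c oxidase. It was at 258, 247 and 239.7 ppm in Nmnat1 knockdown libraries, 529.6, 852 and 562 ppm in Nmnat2 knockdown libraries and 611, 655 and 589.5 ppm in Scramble libraries. All 3 Nmnat1 knockdown libraries lay below every other library of the table, and their mean was 0.401 of the Scramble mean. The log2 fold change was -1.31 ± 0.19 (SE) against Scramble (limma, adjusted p = 0.0373), and Cox5a was the 1 gene of 83 past the threshold, where 0.144% of all 22233 genes tested were past it in either direction (0.0855% lower and 0.0585% higher). In the overexpression table the groups overlapped: Cox5a was at 544, 628 and 623 ppm in Nmnat1 overexpression libraries, 560.4, 537 and 592 ppm in Nmnat2 overexpression libraries and 549, 515 and 540.3 ppm in empty vector libraries (limma, adjusted p = 0.676 and 0.869). The call against Scramble rested on few samples: the fold change stayed between -1.35 and -1.27 whichever library was left out, but adjusted p (limma) was 0.165, 0.209 and 0.176 without C1, C2 and C3, 0.195, 0.214 and 0.226 without N1_1, N1_2 and N1_3, 0.0545 without N2_3, 0.0427 without N2_1 and 3.48e-05 without N2_2. Cox5a overlaps a gene on the opposite strand over 1140 bp of the annotated gene spans, introns included. Whether their exons overlap was not tested. Since the libraries do not record strand, reads from any shared exon sequence cannot be told apart.

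Its partners in complex IV did not pass the threshold, and the ratio of Cox5a to them differed between the groups. Cox5b, the zinc-binding neighbour of Cox5a on the matrix side, was at 869, 752 and 699 ppm in Nmnat1 knockdown libraries, against 981, 929.7 and 909 ppm in Scramble libraries, with a log2 fold change of -0.29 ± 0.26 (SE) (limma, adjusted p = 0.734). Cox4i1 was at 2049.6, 1964 and 1965 ppm in Nmnat1 knockdown libraries, against 2148, 2042 and 2036 ppm in Scramble libraries, which overlap. The ratio of Cox5a to Cox6b1, a subunit on the intermembrane side, was 0.242, 0.246 and 0.248 in Nmnat1 knockdown libraries, against 0.620, 0.627 and 0.620 in Scramble libraries (exact two-sided permutation test, p = 0.1, the smallest possible). Since Cox5a was already known to be lower in these same libraries, this test is not separate evidence. In Nmnat2 knockdown libraries the same ratio was 0.622, 0.526 and 0.626 (exact permutation test against Scramble, p = 0.8). In the overexpression table it was 0.588, 0.606 and 0.610 in Nmnat1 overexpression libraries, 0.727, 0.560 and 0.564 in Nmnat2 overexpression libraries and 0.578, 0.575 and 0.563 in empty vector libraries. Against the empty vector the exact permutation test gave p = 0.1 for Nmnat1 overexpression and p = 0.9 for Nmnat2 overexpression, whose libraries overlapped with the control. For Nmnat2 overexpression the outcome depended on the partner. The ratio to Cox4i1 was 0.476, 0.426 and 0.437 in Nmnat2 overexpression libraries, against 0.357, 0.301 and 0.302 in empty vector libraries. The ratio to Cox5b was 0.778, 0.688 and 0.813, against 0.608, 0.569 and 0.637. Both ratios lay wholly above the control (exact permutation test, p = 0.1 each). Cox5a itself overlapped between these groups. Cox4i1 lay wholly below the control, and so did Cox5b, at 720 to 780 ppm against 848 to 905 ppm. These tests are therefore not separate evidence on Cox5a. For Nmnat1 overexpression the exact permutation test gave p = 0.1 with Cox4i1 and p = 0.2 with Cox5b. There too Cox4i1 itself lay wholly below the empty vector libraries. A ratio within a library does not depend on its scaling. The ratio of Cox5a to Cox6b1 was lower in all 3 Nmnat1 knockdown libraries than in any other library of the table.

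**Figure D1:**
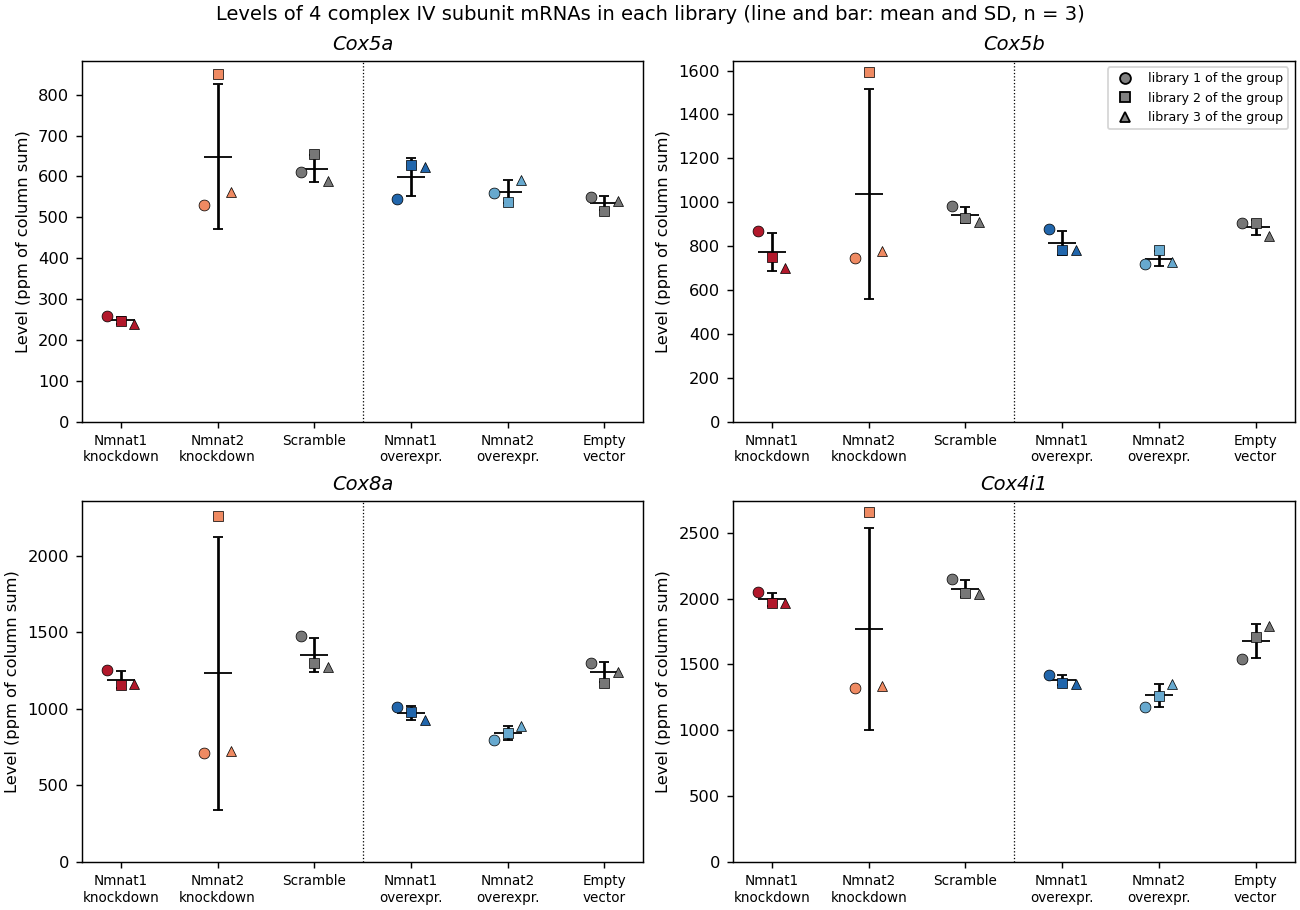
Levels of 4 complex IV subunit mRNAs in ppm of the column sum, for each of the 18 libraries (points), with the group mean and SD (n = 3, bars), the knockdown table left of the dotted line and the overexpression table right of it. Cox5a is at 248 ± 9.04 ppm in Nmnat1 knockdown libraries, against 619 ± 33.2 ppm in Scramble libraries, and the square in each Nmnat2 knockdown group is library N2_2, the highest of the table for all 4 genes.

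The promoters of 4 genes are printed to set the called genes beside partners of the same complex that were not called in the same comparison. They are the 250 bases before the annotated start from RefSeq on GRCm38.p6, read 5′ to 3′ on the strand of the gene, with matches to 5 promoter motifs in capitals. Cox5a lies at chr9:57520982-57521231 (+), Cox5b at chr1:36691237-36691486 (+), Cox8a at chr19:7217617-7217866 (-) and Ndufa4 at chr6:11907451-11907700 (-).
Cox5a: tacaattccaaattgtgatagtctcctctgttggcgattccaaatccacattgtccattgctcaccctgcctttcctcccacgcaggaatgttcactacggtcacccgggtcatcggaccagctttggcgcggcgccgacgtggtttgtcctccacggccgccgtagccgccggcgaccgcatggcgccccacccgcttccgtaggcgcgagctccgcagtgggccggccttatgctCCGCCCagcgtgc
Cox5b: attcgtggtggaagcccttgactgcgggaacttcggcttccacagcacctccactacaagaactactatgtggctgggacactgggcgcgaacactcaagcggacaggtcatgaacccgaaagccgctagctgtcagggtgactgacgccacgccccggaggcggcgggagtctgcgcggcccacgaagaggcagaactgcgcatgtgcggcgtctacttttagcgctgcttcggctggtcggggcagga
Cox8a: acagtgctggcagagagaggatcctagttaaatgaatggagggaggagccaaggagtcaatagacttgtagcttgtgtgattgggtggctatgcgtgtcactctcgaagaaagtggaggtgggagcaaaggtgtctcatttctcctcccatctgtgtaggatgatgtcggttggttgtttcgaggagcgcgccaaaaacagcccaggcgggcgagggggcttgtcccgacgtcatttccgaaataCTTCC
Ndufa4: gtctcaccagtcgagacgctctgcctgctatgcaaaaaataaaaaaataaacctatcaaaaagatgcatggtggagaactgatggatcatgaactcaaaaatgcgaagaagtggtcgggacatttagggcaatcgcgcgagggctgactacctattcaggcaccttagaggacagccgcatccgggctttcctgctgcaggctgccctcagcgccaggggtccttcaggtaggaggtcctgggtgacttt
The capitals in Cox5a are a GC box just before the start. The capitals in Cox8a begin an ETS motif that runs over the start and past the printed end. Cox5b and Ndufa4 hold none of the 5 motifs in these letters. Promoters were found for 69 of the 85 genes, and in windows of 250 bases before to 50 after the start, on both strands, the NRF1 motif was in 16 of them (23.2%, against 4.78% of all 27025 promoters), the ETS motif CCGGAAG in 15 (21.7%, against 9.12%), the YY1 motif AANATGGC in 16 (23.2%, against 6.23%), the GC box GGGCGG in 28 (40.6%, against 35.9%) and the CRE motif TGACGTCA in 4 (5.80%, against 1.88%). Matches are letters in a window and say nothing of binding in these cells.

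Over the whole chain the median moved little in Nmnat1 knockdown libraries. In complex IV, 13 of the 16 tested genes, Cox5a among them, had a log2 fold change below 0. The 16 include the minor isoforms Cox4i2, Cox6b2, Cox7a1, Cox7b2 and Cox8c. These averaged 9.91, 4.37, 2.88, 4.20 and 3.36 ppm in Scramble libraries, so that the count and the median of complex IV rest in part on genes near the floor. The median log2 fold change of the 83 genes was -0.05, beside 0.00 over all genes tested, and by complex it was 0.01 for complexes I and II, -0.11 for complex III, -0.22 for complex IV and -0.07 for complex V. At an unadjusted p under 0.05 (limma) 4 genes were lower and 0 higher, and the lower ones make up 4.82% of the 83, near the background of all genes, which was 5.64% lower and 4.88% higher. In 17 of the 83 (20.5%) the Nmnat1 knockdown libraries lay wholly below the Scramble libraries, and in 11 (13.3%) wholly above, beside 12.0% and 12.8% of all genes.

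After Cox5a the smallest p-values belonged to genes of complexes I and III. Ndufa4l2, a low paralog of Ndufa4 known as a hypoxia-induced gene, was at 15.5, 7.46 and 11.2 ppm in Nmnat1 knockdown libraries, against 28.5, 27.5 and 25.1 ppm in Scramble libraries (log2 fold change -1.23 ± 0.30 (SE), limma adjusted p = 0.173). Ndufb9, an accessory subunit of complex I, was at 698, 661 and 658 ppm in Nmnat1 knockdown libraries, against 1063, 1119 and 957 ppm in Scramble libraries (-0.63 ± 0.22 (SE), adjusted p = 0.33, limma). Cyc1, the cytochrome c1 of complex III, was at 320.2, 313 and 291 ppm in Nmnat1 knockdown libraries, against 367, 409.7 and 392 ppm in Scramble libraries (-0.34 ± 0.13 (SE), adjusted p = 0.411, limma). The Nmnat1 knockdown libraries were the lower ones in each of these 3 genes, with no overlap, and none was past the threshold. Cox7a2l, Atp5s and Uqcrc1 had log2 fold changes of -0.34, -0.65 and -0.32, and Ndufa8 of 0.33, with adjusted p (limma) between 0.482 and 0.552.

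N2_2 belongs to neither group of this comparison but enters its estimate of the spread. Without it, 8 genes were lower (9.64%) and 1 higher (1.2%) past the threshold (limma), beside 3.60% and 4.82% of the 21669 genes then tested. The lower ones were Cox5a, Ndufb9 (adjusted p = 0.000696), Uqcr10 (0.00687), Atp5e (0.00411), Ndufa4l2 (0.0169), Cyc1 (0.0188), Cox7a2l (0.0277) and Atp5k (0.0354), all by limma, and the higher one was Ndufa8 (0.0395). Both fits give these genes the same fold change, since neither group of the comparison holds N2_2. Of the cell type markers, the summed progenitor genes were at 177, 183 and 177 ppm in Nmnat1 knockdown libraries, against 425, 408 and 408 ppm in Scramble libraries, and the summed Müller glia genes at 2476, 2573 and 2605 ppm in Nmnat1 knockdown libraries, against 4716, 5137 and 5402 ppm in Scramble libraries. Rod genes summed to 5518, 5399.5 and 5395 ppm in Nmnat1 knockdown libraries, against 4810.1, 5168 and 4878 ppm in Scramble libraries. Of these 9 genes, 3 were wholly lower and 3 wholly higher, with a median log2 fold change of -0.06. Cone genes summed to 155, 148 and 155 ppm in Nmnat1 knockdown libraries, against 188, 209.8 and 202 ppm in Scramble libraries. Amacrine genes summed to 217, 197 and 236 ppm, against 272, 277 and 288 ppm, and 1 of 6 was lower past the threshold (limma). The part of these markers in the results on the chain was not tested. In such bulk samples, fewer cells of a type and less RNA per cell cannot be told apart.

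**Figure D2:**
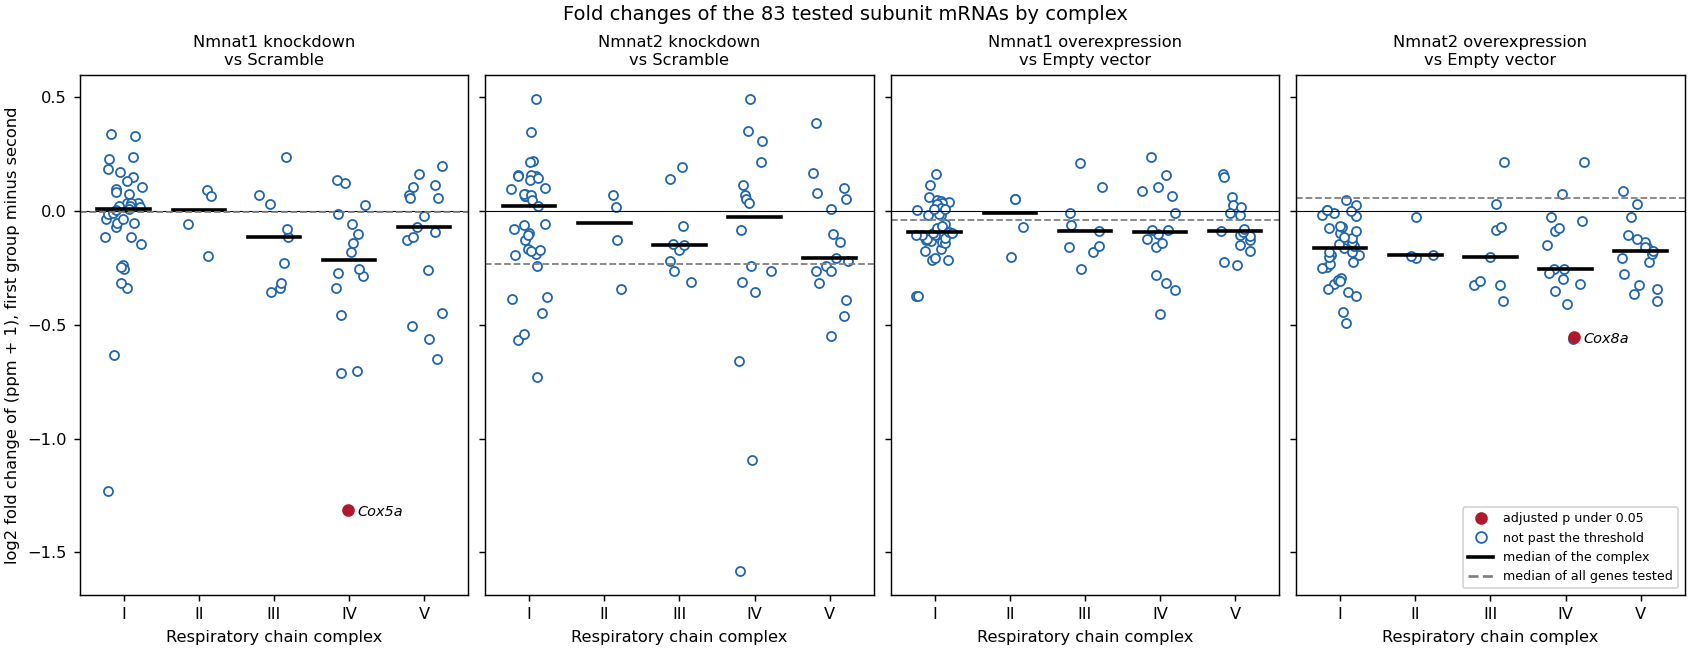
Log2 fold change of the 83 tested genes (points, jittered within a complex), for each group against the control of its table, by complex, with the median of the complex (black bar) and the median of all genes tested (dashed line). The filled points are Cox5a at -1.31 in Nmnat1 knockdown and Cox8a at -0.55 in Nmnat2 overexpression, and in Nmnat2 overexpression all 5 complex medians lie below the dashed line.

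For Nmnat2 knockdown, 1 library decided what the chain showed. With all 3 libraries, 0 of the 83 genes passed the threshold against Scramble (limma), beside 0.436% of all genes in either direction (0.360% lower and 0.0765% higher). At an unadjusted p under 0.05, 6 genes were lower and 0 higher (7.23% of the 83, beside 13.4% of all genes lower and 3.41% higher). The libraries were wholly below Scramble in 9 genes (10.8%) and wholly above in 4 (4.82%), beside 17.2% and 4.73% of all genes. The median log2 fold change was -0.08, beside -0.23 over all genes. The 2 medians were 0.16 and -0.05 with median-of-ratios scaling, -0.21 and -0.33 on the deposited scale and -0.13 and 0.00 with quantile normalization. The chain thus lay above the median gene in ppm and under the first 2 of these scalings and below it under quantile normalization, and its own sign turned under median-of-ratios scaling.

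Library N2_2 had far more of most subunit mRNAs than N2_1 and N2_3, which were close to each other. Ndufa4 was at 519.5, 1829.8 and 503 ppm in Nmnat2 knockdown libraries N2_1, N2_2 and N2_3, against 1274, 1093 and 1059 ppm in Scramble libraries. Cox8a, a small membrane subunit of complex IV, was at 713, 2263 and 722 ppm in Nmnat2 knockdown libraries, against 1477, 1298 and 1275 ppm in Scramble libraries. Ndufb8 was at 743, 1665 and 704 ppm in Nmnat2 knockdown libraries, against 1406, 1491 and 1349 ppm in Scramble libraries. In all 3 genes N2_2 lay above and the other 2 Nmnat2 knockdown libraries below every Scramble library. Over the 79 genes with at least 5 ppm in 3 libraries, N2_2 was higher than the mean of N2_1 and N2_3 in 64, by a median of 0.83 on the log2 scale, beside -0.26 over all genes.

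The excess in N2_2 went with short transcripts. The 44 genes whose longest coding transcript is under 1000 bp were higher by a median of 1.03, and the 35 longer ones by 0.11. The split goes by the longest annotated transcript. Some of the 35, such as Ndufb8 with 2142 bp, have a median coding transcript under 1000 bp (549 bp for Ndufb8). Short genes outside the chain were not compared. Sdha, with 2900 bp, was at 124 ppm in N2_2, against 262 and 264 ppm in N2_1 and N2_3. Spearman's rho between the difference and length was -0.60 over the 79 genes, which share their libraries and depth. It was -0.28 for C1 against C2 and C3, -0.32 for N1_1 against N1_2 and N1_3, and 0.05 for N2_1 against N2_3.

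**Figure D3:**
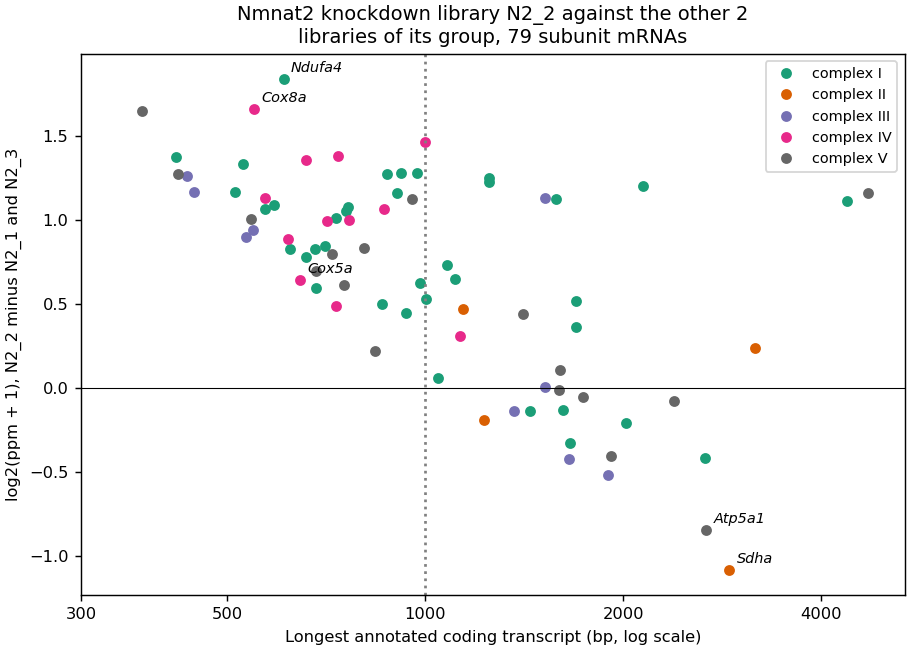
Difference in log2(ppm + 1) between Nmnat2 knockdown library N2_2 and the mean of N2_1 and N2_3, for 79 genes (points, coloured by complex), against the length of the longest annotated coding transcript on a log axis, with a dotted line at 1000 bp. Most genes under 1000 bp lie near 1, with Ndufa4 at 1.84 and Cox8a at 1.66, and the lowest points are Sdha at -1.08 and Atp5a1 at -0.84.

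Without N2_2, 31 of the 83 genes (37.3%) were lower in Nmnat2 knockdown than in Scramble libraries past the threshold and 0 higher (limma), beside 7.51% lower and 7.99% higher of all 21669 genes. The median log2 fold change was then -0.28, beside -0.15 over all genes. The lower ones were 13 of 37 genes in complex I, 0 of 4 in complex II, 4 of 9 in complex III, 6 of 16 tested in complex IV and 8 of 17 in complex V. Within complex I they were 1 of the 7 core subunits, Ndufs7, and 12 of the 30 others. Ndufa4 had a log2 fold change of -1.15 (adjusted p = 0.00012), Ndufb8 of -0.97 (2.48e-05), Cox8a of -0.91 (9.67e-05), Atp5e, the epsilon subunit, of -0.69 (0.000354) and Cox4i1 of -0.64 (0.000109), all by limma. Cox6a1 had 0.07 with N2_2 and -0.31 without it (limma, adjusted p = 0.0138). Such a fit rests on 2 Nmnat2 knockdown libraries.

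In some genes all 3 Nmnat2 knockdown libraries lay on the same side of Scramble. Ndufa9, an accessory subunit of complex I, was at 232, 207 and 223 ppm in Nmnat2 knockdown libraries, against 308, 292 and 261 ppm in Scramble libraries, with a log2 fold change of -0.38 ± 0.14 (SE) (limma, adjusted p = 0.222, and 0.034 without N2_2). Atp5c1, the gamma subunit of the ATP synthase stalk, was at 477, 463 and 481 ppm in Nmnat2 knockdown libraries, against 598, 597 and 579 ppm in Scramble libraries (-0.32 ± 0.13 (SE), limma adjusted p = 0.266, and 0.0412 without N2_2). Ndufv1, the core subunit that binds NADH, was at 276, 223 and 282 ppm in Nmnat2 knockdown libraries, against 303, 399.6 and 364 ppm in Scramble libraries (-0.45 ± 0.16 (SE), limma adjusted p = 0.209, and 0.0598 without N2_2). In all 3 genes every Nmnat2 knockdown library lay below every Scramble library. Cox7a2l lay the other way, at 170.2, 213 and 172 ppm in Nmnat2 knockdown libraries, against 145, 152 and 149 ppm in Scramble libraries (0.31 ± 0.16 (SE), limma adjusted p = 0.351). Cox7c, a small subunit of complex IV, overlapped between the groups, at 757, 1506 and 757 ppm in Nmnat2 knockdown libraries, against 764, 642 and 633 ppm in Scramble libraries. Its log2 fold change was 0.49 (limma, adjusted p = 0.344), and 0.16 without N2_2.

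Markers of several cell types moved with the same libraries. The 9 rod genes summed to 1652, 3200.3 and 1654 ppm in Nmnat2 knockdown libraries N2_1, N2_2 and N2_3, against 4810.1, 5168 and 4878 ppm in Scramble libraries, and 3 of the 9 were lower past the threshold (limma). Amacrine markers summed to 621, 297 and 643 ppm in Nmnat2 knockdown libraries, against 272, 277 and 288 ppm in Scramble libraries. Müller glia markers summed to 3234, 2005 and 3120.0 ppm in Nmnat2 knockdown libraries, against 4716, 5137 and 5402 ppm in Scramble libraries, and cone markers to 56.3, 93.3 and 53.8 ppm in Nmnat2 knockdown libraries, against 188, 209.8 and 202 ppm in Scramble libraries. In both of these lists 2 of 6 tested genes were lower past the threshold (limma), and 1 amacrine gene was higher. Progenitor markers summed to 549, 218 and 541 ppm in Nmnat2 knockdown libraries, against 425, 408 and 408 ppm in Scramble libraries. Bipolar markers summed to 206, 697 and 219 ppm in Nmnat2 knockdown libraries, against 472, 527 and 533 ppm in Scramble libraries. In that sum N2_2 lay above and the other 2 Nmnat2 knockdown libraries below every Scramble library. Of the 4 tested bipolar genes, 2 were nevertheless lower in all 3 Nmnat2 knockdown libraries. N2_2 stood between the other Nmnat2 knockdown libraries and Scramble in rod and cone markers and near Scramble in amacrine markers. In progenitor markers it lay below Scramble and the other 2 above, and in Müller glia markers it was the farthest below. The part of these markers in the results on the chain was not tested.

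Set directly against Nmnat2 knockdown, Nmnat1 knockdown libraries had 1 of 83 genes lower and 0 higher past the threshold (limma), beside 0.715% lower and 1.34% higher of all genes (2.06% in all). The gene was Cox5a, with a log2 fold change of -1.35 ± 0.19 (SE) (limma, adjusted p = 0.00645), which was -1.14 without N2_2 (adjusted p = 1.19e-05) and missed the threshold at 0.0518 without N1_3. Cox7a2l came next at -0.65 ± 0.16 (SE) (limma, adjusted p = 0.0693). At an unadjusted p under 0.05, 3 genes were lower and 5 higher, beside 4.54% and 11.9% of all genes, and 6 were wholly lower and 8 wholly higher, beside 6.37% and 19.0%. Without N2_2, 4 genes were lower and 26 higher in Nmnat1 knockdown libraries, beside 7.02% and 6.52% of all genes. The 4 lower ones were Cox5a, Cox7a2l, Cyc1 and Ndufs1, a core subunit of complex I, and among the higher ones were Ndufa4 (1.39), Ndufb8 (1.07) and Cox8a (0.73).

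**Figure D4:**
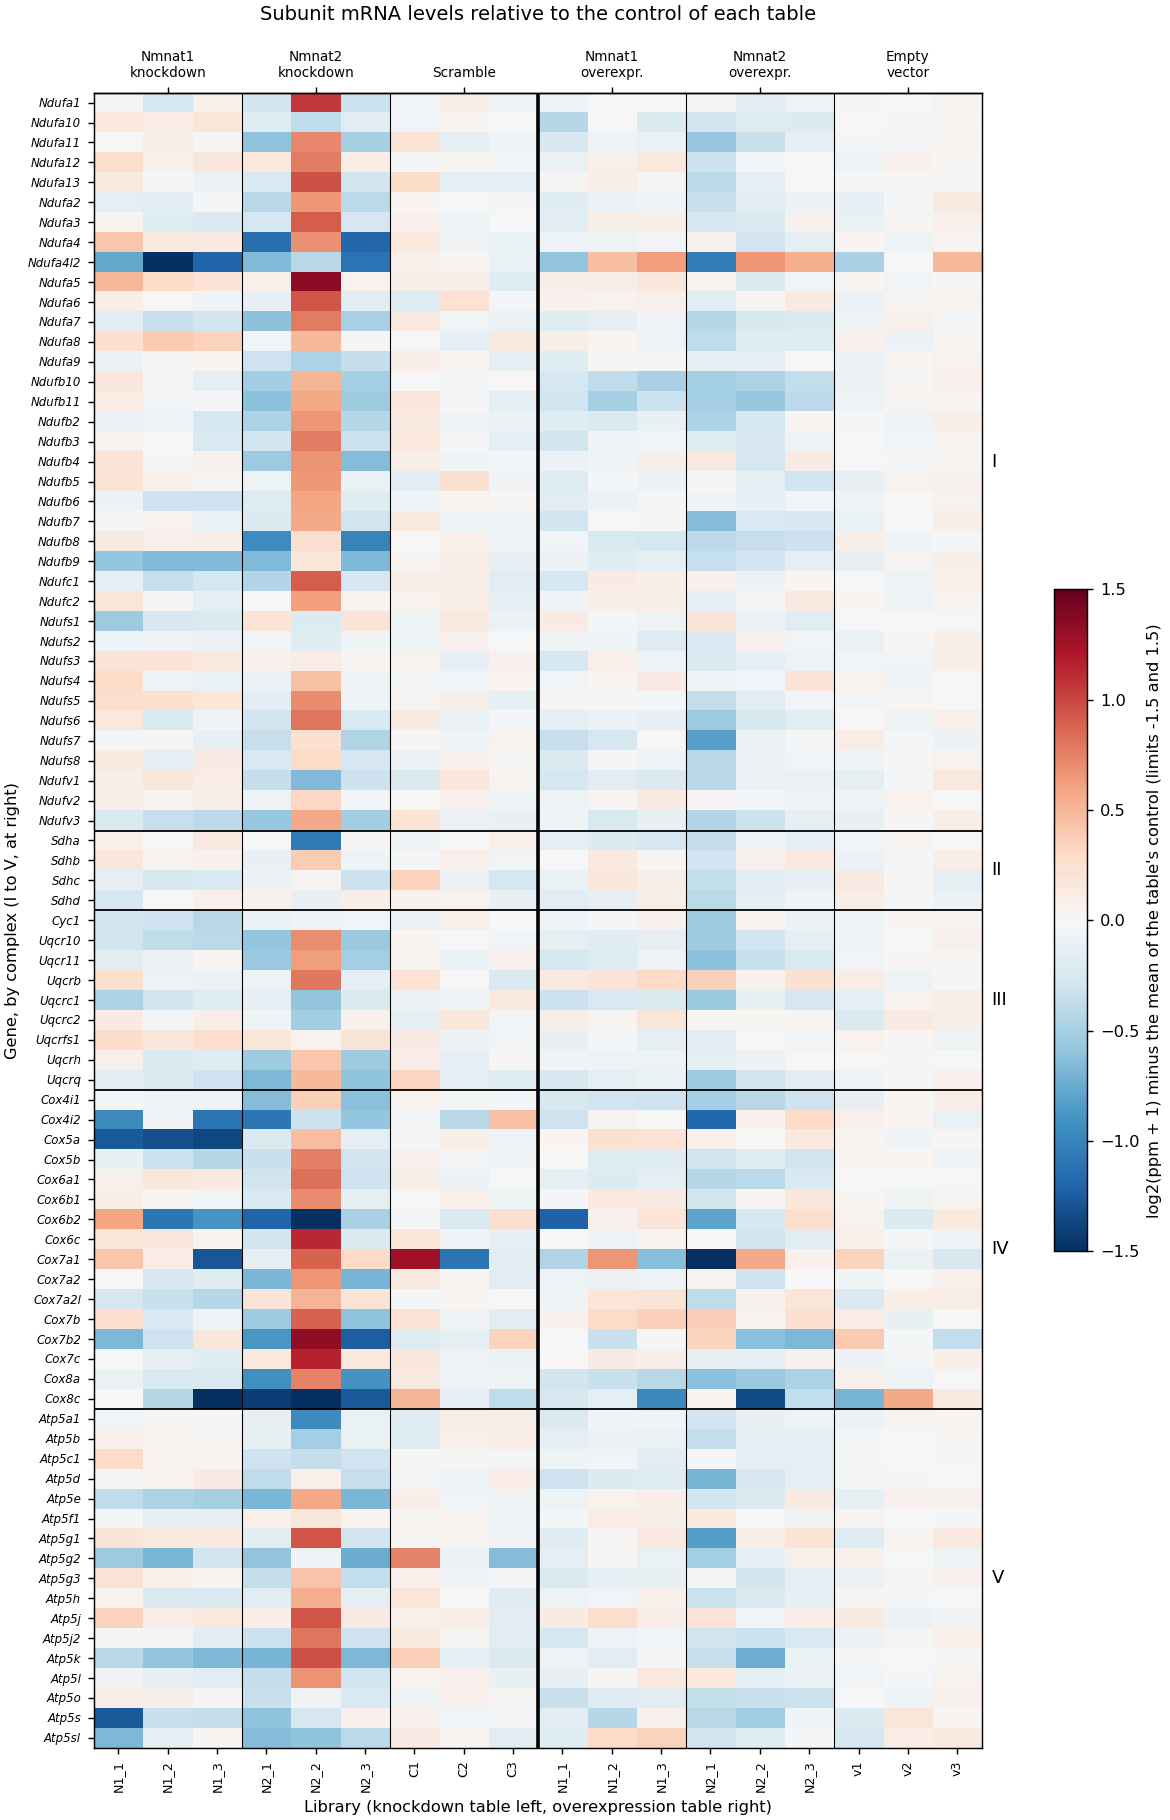
Level of each of the 83 tested genes in each library, as log2(ppm + 1) minus the mean of the control of its table, with genes ordered by complex (I to V) and libraries by group (knockdown table left of the thick line, overexpression table right). Column N2_2 of the Nmnat2 knockdown group is mostly red while N2_1 and N2_3 are mostly blue, Cox5a is blue in the 3 Nmnat1 knockdown columns (-1.31 on average), and most genes are pale blue in the Nmnat2 overexpression columns (median -0.18).

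Nmnat2 overexpression went with a small and broad difference in the chain. Of the 83 genes, 72 had a log2 fold change below 0 against the empty vector, with a median of -0.18, beside 0.06 over all genes tested. In 28 genes (33.7%) the Nmnat2 overexpression libraries lay wholly below the empty vector libraries and in 0 wholly above, beside 7.73% and 8.60% of all genes. At an unadjusted p under 0.05 (limma) 23 genes were lower (27.7%) and 0 higher, beside 5.27% and 5.01% of all genes. After adjustment 1 gene was lower and 0 higher, beside 0.347% and 0.203% of all 20725 genes (0.550% in all). The median kept its sign in all 21 alternatives, between -0.40 and -0.11.

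The gene past the threshold was Cox8a (GRCm38, chr19:7215153-7217616, minus strand). It was at 799, 843 and 888 ppm in Nmnat2 overexpression libraries, 1013, 979 and 925 ppm in Nmnat1 overexpression libraries and 1302, 1171 and 1244 ppm in empty vector libraries. The 3 groups did not overlap, with the empty vector libraries highest. The log2 fold change was -0.55 ± 0.09 (SE) for Nmnat2 overexpression (limma, adjusted p = 0.0359) and -0.35 ± 0.09 (SE) for Nmnat1 overexpression (limma, adjusted p = 0.196). For Nmnat2 overexpression, adjusted p was 0.126, 0.175 and 0.187 without v1, v2 and v3, 0.129 and 0.116 without overexpression libraries N2_2 and N2_3, 0.0797 and 0.0721 without N1_2 and N1_3, 0.0198 without N1_1 and 0.0200 without N2_1 (limma), while the log2 fold change stayed between -0.59 and -0.52.

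The genes next to Cox8a belonged to complexes I, III, IV and V. Ndufb11, an accessory subunit of complex I encoded on the X chromosome, was at 244, 234 and 265 ppm in Nmnat2 overexpression libraries, against 331, 357 and 355 ppm in empty vector libraries (-0.49 ± 0.09 (SE), limma adjusted p = 0.0562). Ndufb10, another accessory subunit of the membrane arm, was at 257, 265 and 282 ppm in Nmnat2 overexpression libraries, against 343, 368 and 383 ppm in empty vector libraries (-0.44 ± 0.10 (SE), limma adjusted p = 0.0824). Cox4i1, which overlaps Gm20388 on the same strand over 5986 bp and Emc8 on the opposite strand over 352 bp, so that its reads may be shared with theirs, was at 1178, 1259.5 and 1354 ppm in Nmnat2 overexpression libraries, against 1537, 1710.2 and 1790.3 ppm in empty vector libraries (-0.41 ± 0.10 (SE), limma adjusted p = 0.124). The groups did not overlap in any of these 3. Atp5o, the subunit that ties the stator to the catalytic head of complex V, had a log2 fold change of -0.34 (limma, adjusted p = 0.144), Cox6a1 of -0.35 (0.151), Ndufb8 of -0.35 (0.173) and Uqcr11 of -0.39 (0.202).

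By complex, the medians in Nmnat2 overexpression were -0.16 for complex I, -0.20 for complexes II and III, -0.25 for complex IV and -0.17 for complex V. The genes below 0 were 32 of 37, 4 of 4, 7 of 9, 14 of 16 and 15 of 17, in the same order. The 16 tested complex IV genes include the minor isoforms Cox4i2, Cox6b2, Cox7a1, Cox7b2 and Cox8c. These averaged 10.4, 6.94, 3.12, 1.82 and 1.70 ppm in empty vector libraries. The complex IV median thus rests in part on genes near the floor, and it was not computed without them. Complex IV mRNAs together made up 0.792% ± 0.0424 of the signal in Nmnat2 overexpression libraries, against 0.927% ± 0.0148 in empty vector libraries (SD, n = 3 each), and complex I mRNAs 1.34% ± 0.0722 in Nmnat2 overexpression libraries, against 1.52% ± 0.0420 in empty vector libraries. Uqcrb, Cox7b and Atp5j, subunits of complexes III, IV and V, were on the other side of 0, with log2 fold changes of 0.21, 0.22 and 0.09 (limma, adjusted p = 0.532, 0.599 and 0.861).

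Without the 3 libraries numbered 1, 21 of the 83 genes (25.3%) were lower in Nmnat2 overexpression past the threshold and 0 higher (limma), beside 3.53% and 4.65% of the 17502 genes then tested. They were 8 genes of complex I, 0 of complex II, 4 of complex III, 4 of complex IV and 5 of complex V. Cox8a was among them at -0.48 (adjusted p = 0.00174), as were Cox4i1 at -0.42 (0.00192), Ndufb10 at -0.46 (0.00457) and Atp5o at -0.34 (0.00753), by limma. This fit has 2 libraries in each group.

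Nmnat1 overexpression was set against the same empty vector libraries. There, 0 of 83 genes passed the threshold (limma), beside 0.121% of all genes (0.0290% lower and 0.0917% higher), and at an unadjusted p under 0.05 5 were lower (6.02%) and 0 higher, beside 5.13% and 4.44%. The median log2 fold change was -0.09, beside -0.04 over all genes. The Nmnat1 overexpression libraries lay wholly below the empty vector libraries in 22 genes (26.5%) and wholly above in 4 (4.82%), beside 10.1% and 7.74% of all genes. Ndufb11 was at 282, 245 and 278 ppm and Ndufb10 at 306, 279 and 259 ppm in Nmnat1 overexpression libraries, with log2 fold changes of -0.38 ± 0.09 (SE) and -0.37 ± 0.10 (SE) (limma, adjusted p = 0.173 and 0.177). Cox4i1 had a log2 fold change of -0.28, Atp5o of -0.22, Sdha of -0.20, Uqcrc1, a core protein of complex III, of -0.25 and Uqcrb of 0.21. Without the 3 libraries numbered 1, 9 genes were lower (10.8%) and 3 higher (3.61%) past the threshold (limma), beside 4.94% and 6.21% of all genes. The higher ones were Cox5a, Cox7b (0.38, adjusted p = 0.0222) and Uqcrb (0.30, 0.0266), and the lower ones were Cox8a, Cox4i1, Ndufb8, Ndufb9, Ndufb10, Ndufb11, Sdha, Uqcrc1 and Atp5d.

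Between the overexpression groups no subunit differed past the threshold. With Nmnat1 over Nmnat2 overexpression, 0 of 83 genes were past it (limma), beside 0.0193% of all genes (0.00965% lower and 0.00965% higher), and at an unadjusted p under 0.05 3 genes were higher and 0 lower, beside 1.41% and 3.05%. Without the 3 libraries numbered 1 the count was again 0, beside 0.149% lower and 0.143% higher of all genes. The median log2 fold change was 0.11, beside -0.05 over all genes, and 13 genes (15.7%) were wholly higher and 0 wholly lower in Nmnat1 overexpression libraries, beside 3.12% and 5.22% of all genes. For Cox8a the difference was 0.21 ± 0.09 (SE) (limma, adjusted p = 0.953). Its Nmnat1 overexpression libraries lay wholly above the Nmnat2 overexpression libraries, so that the same order within each library number follows and adds nothing. Since same-numbered libraries of these groups deviated together, the comparison was also fitted with the number as a block. With the block 0 genes were past the threshold, and 11 were higher (13.3%) and 0 lower at an unadjusted p under 0.05 (limma), beside 2.53% and 6.22% of all genes. Cox8a then had 0.21 ± 0.08 (SE, limma, adjusted p = 0.544).

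Summed markers of several cell types separated the overexpression libraries from the empty vector libraries. The 9 rod genes summed to 4254, 2387 and 2413 ppm in Nmnat1 overexpression libraries, 3220.0, 2350.2 and 2337 ppm in Nmnat2 overexpression libraries and 5262, 4940.2 and 4858 ppm in empty vector libraries. The 6 cone genes summed to 162, 127 and 122 ppm in Nmnat1 overexpression libraries, 98.2, 126 and 119.9 ppm in Nmnat2 overexpression libraries and 318, 262 and 259 ppm in empty vector libraries. In Nmnat2 overexpression, 1 rod gene and 3 cone genes were lower past the threshold, and in Nmnat1 overexpression 0 were (limma), with 6 of 9 rod and 4 of 6 cone genes lower at an unadjusted p under 0.05. Every overexpression library lay below every empty vector library in both sums. Bipolar markers summed to 516, 449 and 434 ppm in Nmnat1 overexpression libraries, 420.2, 398 and 426 ppm in Nmnat2 overexpression libraries and 690.1, 638 and 623 ppm in empty vector libraries, and 1 of 4 tested genes was lower past the threshold in Nmnat2 overexpression (limma). Amacrine markers summed to 291, 409 and 397 ppm in Nmnat1 overexpression libraries, 247, 371 and 319 ppm in Nmnat2 overexpression libraries and 238, 227 and 220.1 ppm in empty vector libraries, and 1 of 6 tested genes was higher past the threshold in Nmnat2 overexpression (limma). The bipolar sums lay below and the amacrine sums above the empty vector libraries in every overexpression library. The single genes were mixed. In Nmnat2 overexpression the 4 tested bipolar genes had a median log2 fold change of 0.00, beside 0.06 over all genes, and 1 was wholly lower. Of the 6 amacrine genes, 2 were wholly higher and 1 wholly lower in each overexpression group. The part of these markers in the results on the chain was not tested.

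Genes that build or serve the chain without being its subunits gave no call against a control. Of 47 tested assembly factors for the 5 complexes, 10 genes for electron carriers and nucleotide exchange and 15 regulators of mitochondrial biogenesis, 0 passed the threshold in any of the 4 comparisons with a control (limma). At an unadjusted p under 0.05 these 72 genes gave 5 lower (6.94%) and 2 higher (2.78%) in Nmnat1 knockdown, beside 5.64% and 4.88% of all genes, and 9 lower (12.5%) and 3 higher (4.17%) in Nmnat2 knockdown, beside 13.4% and 3.41%. They gave 4 lower (5.56%) and 2 higher (2.78%) in Nmnat1 overexpression, beside 5.13% and 4.44%, and 3 lower (4.17%) and 1 higher (1.39%) in Nmnat2 overexpression, beside 5.27% and 5.01%. The lower shares were near those of all genes in each comparison. The assembly factors alone gave 6 lower and 1 higher in Nmnat2 knockdown and 2 lower and 0 higher in Nmnat2 overexpression. Ppargc1a, which encodes the coactivator PGC-1 alpha of mitochondrial biogenesis and is named here after its values were seen, was at 6.22, 10.1 and 8.26 ppm in Nmnat1 knockdown libraries, 6.93, 6.16 and 4.4 ppm in Nmnat2 knockdown libraries and 13.6, 13.8 and 18 ppm in Scramble libraries (log2 fold changes -0.82 and -1.25, limma adjusted p = 0.366 and 0.0967). Both knockdown groups lay below the Scramble libraries for this gene. Between the knockdown groups, 7 of the 72 genes were lower (9.72%) and 6 higher (8.33%) at an unadjusted p under 0.05 (limma). Of all genes, 4.54% were lower and 11.9% higher. Past the threshold 1 of the 72 was higher (1.39%) and 0 lower, near the 1.34% and 0.715% of all genes. Etfa, which encodes the alpha subunit of the electron transfer flavoprotein and is also named after its values were seen, was at 149, 119 and 109.8 ppm in Nmnat1 knockdown libraries and 64.3, 73.8 and 71.3 ppm in Nmnat2 knockdown libraries, beside 113, 105 and 93.8 ppm in Scramble libraries. It was higher in all 3 Nmnat1 knockdown libraries, with a log2 fold change of 0.83 ± 0.18 (SE) over Nmnat2 knockdown (limma, adjusted p = 0.0430), and 0.87 without N2_2 (adjusted p = 0.00267).

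The summed subunits encoded by mitochondrial DNA were highest in 2 single libraries of the knockdown table. The 13 genes summed to 25200.0, 22926 and 23211 ppm in Nmnat1 knockdown libraries, 28494, 65121 and 28427 ppm in Nmnat2 knockdown libraries and 46739, 27934 and 27434 ppm in Scramble libraries, where the high values are N2_2 and C1. The Nmnat1 knockdown libraries lay wholly below Scramble in this sum. In the overexpression table they summed to 26092, 24673 and 23951 ppm in Nmnat1 overexpression libraries, 31812, 24565 and 23929 ppm in Nmnat2 overexpression libraries and 26635, 27694 and 27144 ppm in empty vector libraries. Of the 13, 0 passed the threshold against a control (limma), with 1 or 0 genes in each direction and comparison at an unadjusted p under 0.05. In Nmnat1 knockdown, 8 of the 13 lay wholly below Scramble and 0 wholly above, beside 12.0% and 12.8% of all genes. Their median log2 fold change was -0.41, beside 0.00 over all genes. In the sum of the 13 genes the Nmnat1 overexpression libraries lay wholly below the empty vector libraries, and the Nmnat2 overexpression libraries overlapped with them.

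The genes most like Cox5a differed between the tables. By Pearson's r of log2(ppm + 1) over the 9 libraries of the knockdown table, among 82 other genes, they were Cyc1 (0.91), Cox7a2l (0.89) and Atp5f1, the b subunit of complex V (0.79). In the overexpression table they were Cox7b (0.83), Uqcrb (0.69) and Atp5j (0.68). Those most like Cox8a were Cox7a2, Cox4i1 and Ndufb11 in the knockdown table (0.98 to 0.99) and Ndufb8, Cox6a1 and Ndufb10 in the overexpression table (0.92 to 0.95). All points of such a correlation share the libraries, and in the knockdown table the high values for Cox8a rest in part on N2_2, which was the highest library for Cox8a and Cox4i1 alike.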

How the data were processed

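Polyadenylated RNA of 18 samples was measured by RNA-seq, with 3 libraries in each of 6 groups, in 2 deposited tables. The submitters' processing notes name Salmon 0.11.3, sleuth 0.30.0 and GRCm38.p6, without their roles. The authors deposited length-scaled signal per gene, headed TPM, but its columns sum to 14.4 to 29.6 times 1000000 (knockdown) or 17.3 to 26.2 times 1000000 (overexpression), so values were expressed as parts per 1000000 of their own column (ppm). Read depth is not stated; from the steps of low values the libraries' relative depth was 0.698 to 1.30 among knockdown-table libraries, 0.814 to 1.14 among the others, and with only 64.8% to 82.3% of such values within 0.1 of a whole read, no count test was run. The last line of each table is incomplete and was not used.

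Genes with at least 1 ppm in 3 of 9 libraries were tested on log2(ppm + 1) with limma 3.58.1 (R 4.3.3), all 3 groups of a table in 1 fit with a trended prior, and p-values were adjusted by Benjamini-Hochberg over all genes of a comparison at a threshold of 0.05. A fold change on this scale understates that of low genes. The fit was tested on simulated data. Tests were made within a table only. Knockdown columns name a group and not a sample. Same-numbered Nmnat1 and Nmnat2 overexpression libraries deviated from their group means together (r = 0.461, 0.285 and 0.139), so these groups were also compared with a replicate block. Single ratios were compared by exact permutation tests.

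The members, the gene lists and the tests were chosen with earlier results of these data known. Cox5a, Cox8a, called genes, the 8 smallest p-values per comparison with a control, the 2 highest genes per complex and isoform families are named by rule, and any other gene was named after its values were seen. Alternatives were other pseudocounts, filters, scalings, 2-group fits, array weights, no trend, a replicate block, single left-out libraries, and the 3 overexpression-table libraries numbered 1 left out together. By annotated gene spans, introns included, 37 of the 85 genes overlap another gene, 29 of them one on the opposite strand. Whether exons overlap was not tested. Without strand, reads from any exon sequence shared between strands cannot be told apart.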

Additional observations from a re-analysis of the deposited data

How the results depend on the processing

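Counts of called subunit genes moved in every comparison but that between the overexpression groups, while the median kept its sign in all alternatives except for Nmnat2 knockdown against Scramble and Nmnat1 over Nmnat2 knockdown. Except where libraries were left out, the counts in this section stand without those over all genes. Such counts alone are no result about the chain. For Nmnat1 knockdown against Scramble, 1 gene was lower, and 0 were without the filter, with median-of-ratios scaling, on the deposited scale or without a trend, 6 in a fit of the 2 groups alone and 3 with array weights. Leaving out single libraries gave 0 to 8 lower and 0 to 1 higher, beside 0 to 781 and 0 to 1045 of all genes. The medians of the subunit genes then ranged from -0.08 to -0.02. For Nmnat2 knockdown against Scramble, 0 genes were lower, but 32 with array weights and 0 to 31 with single libraries left out. Its median was 0.16 with median-of-ratios scaling and -0.28 to 0.07 with single libraries left out. Of all genes, 0 to 1627 were lower and 0 to 1732 higher in that comparison with single libraries left out. For Nmnat1 over Nmnat2 knockdown, 2 genes were lower with a filter of 5 ppm or median-of-ratios scaling, 0 on the deposited scale, in the 2 groups alone or without a trend, and 5 with array weights. There, 2 were higher with quantile scaling and 28 with array weights. Left-out libraries gave 0 to 4 lower and 0 to 26 higher, beside 36 to 1521 and 47 to 1412 of all genes. The median was -0.28 with median-of-ratios scaling, 0.22 with array weights and -0.18 to 0.23 with left-out libraries. Cox6a1 in Nmnat2 knockdown ranged from -0.31 without N2_2 to 0.26 without N2_3, and Atp5g1 in Nmnat1 over Nmnat2 knockdown had 0.34 with array weights and from -0.23 to 0.38 with left-out libraries, where 0.38 was without N2_2.

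For Nmnat1 overexpression, 5 genes were lower and 1 higher with array weights, and 9 and 3 without the libraries numbered 1. The median was -0.23 on the deposited scale and -0.10 to -0.04 with left-out libraries. For Nmnat2 overexpression, 0 were lower without the filter, with median-of-ratios or quantile scaling, on the deposited scale, in the 2 groups alone or without a trend, 2 with a filter of 5 ppm, 10 with array weights, 21 without the libraries numbered 1 and 0 to 3 with single libraries left out. Its median was -0.40 on the deposited scale and -0.24 to -0.11 with left-out libraries, and that between the overexpression groups 0.07 to 0.17. With single libraries left out, 0 to 152 of all genes were lower and 3 to 169 higher in Nmnat2 overexpression. The scalings moved the median of all genes in Nmnat2 knockdown, which was -0.23 in ppm, -0.05 by median of ratios, 0.00 by quantile normalization (members -0.13) and -0.33 on the deposited scale. The cause of these differences was not tested.

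In the overexpression table, same-numbered libraries deviated together with r between 0.0271 and 0.461, under 0.1 for the empty vector and each overexpression group in number 3, so the numbers were not taken to pair samples in the comparisons with the empty vector. With a replicate block, 2 genes were lower in Nmnat2 overexpression instead of 1, and no other count of genes past the adjusted threshold moved. No paired analysis was possible for the knockdown table because the digits in its column names could not be matched to the sample numbers of the labels.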
